A study of Mus musculus with 18 samples.

Results

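Complex splicing variations are places in a pre-mRNA where several kinds of splicing choice meet at 1 exon. The study listed local splicing variations (LSVs), each made of 1 exon and all the junctions that leave it (a source LSV) or enter it (a target LSV), in 4 tables that set a knockdown against its controls. The complex LSVs described here were those with at least 2 of 3 flags true (alternative 5' splice site, alternative 3' splice site, exon skipping) and with no intron part among their junctions. They numbered 62761 of 120408 LSVs (52.1%) in the PCBP1 Day 0 table, 63456 of 122133 (52.0%) in the PCBP2 Day 0 table, 49970 of 87825 (56.9%) in the PCBP1 Day 2 table and 49231 of 86298 (57.0%) in the PCBP2 Day 2 table. These were 66610 distinct complex LSVs among 128636 distinct LSVs, in 9081 host genes, and 45344 of them were in all 4 tables. The choice used the structure of each LSV and no measured difference.

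The cells were hematopoietic progenitors enriched from E14.5 fetal livers of CD-1 mice, with an antibody to the transferrin receptor CD71 added to the enrichment kit. Every group was infected with a retrovirus of the MSCV-PIG type, which carries puromycin resistance and GFP, so the controls carried the vector as well. The control group held 2 libraries with scrambled shRNA and 1 with shRNA to luciferase, and each knockdown group held 3 libraries, each with a different shRNA to Pcbp1 or to Pcbp2, numbered 1, 3 and 4. Day 0 cells were taken after 48 hours in expansion medium with dexamethasone, erythropoietin and stem cell factor, and Day 2 cells after 2 further days in a differentiation medium with more erythropoietin, which gives 6 groups and 18 libraries. The labels do not name separate litters or cultures for the libraries of a group, so every p-value rests on the spread among these libraries alone, which may be technical.

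Splicing joins exons at a 5' splice site, where the intron begins, and a 3' splice site, where it ends. Choosing another site a few bases away lengthens or shortens an exon, and passing over an exon skips it. PCBP1 and PCBP2 are RNA-binding proteins with KH domains that bind runs of C in single-stranded RNA, and both are known to act on splicing, RNA stability and translation. Erythroid cells change the splicing of many transcripts as they mature, among them transcripts of the red cell membrane skeleton.

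The exons at the complex LSVs on which the results turn are printed here, 5' to 3' on the transcript strand, from GENCODE M21 transcripts on GRCm38. In the first 6, capitals mark runs of 3 or more C, since these are the letters that PCBP proteins are known to bind.
Dmtn, chr14:70617955-70618029, minus strand: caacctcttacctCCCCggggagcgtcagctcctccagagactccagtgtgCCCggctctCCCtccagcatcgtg
Runx1, chr16:92644154-92644345, minus strand: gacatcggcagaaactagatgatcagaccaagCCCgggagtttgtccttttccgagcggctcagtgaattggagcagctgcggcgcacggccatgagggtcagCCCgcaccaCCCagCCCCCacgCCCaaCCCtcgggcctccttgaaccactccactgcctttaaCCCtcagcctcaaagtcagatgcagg
Sidt2, chr9:45947629-45947697, minus strand: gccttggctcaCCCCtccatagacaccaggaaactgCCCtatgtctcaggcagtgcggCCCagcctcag
U2af1l4, chr7:30564703-30564798, plus strand: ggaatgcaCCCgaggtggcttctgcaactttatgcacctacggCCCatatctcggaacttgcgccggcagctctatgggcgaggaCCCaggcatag
Pkm nearer exon, chr9:59675029-59675195, plus strand: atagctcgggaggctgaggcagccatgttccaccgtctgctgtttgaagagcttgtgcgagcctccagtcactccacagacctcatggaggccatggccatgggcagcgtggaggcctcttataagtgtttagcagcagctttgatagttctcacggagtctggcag
Pkm farther exon, chr9:59675568-59675734, plus strand: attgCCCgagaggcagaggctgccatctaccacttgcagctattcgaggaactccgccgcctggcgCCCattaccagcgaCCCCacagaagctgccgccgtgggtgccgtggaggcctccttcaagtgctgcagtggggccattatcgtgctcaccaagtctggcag
The Dmtn exon of 75 bases held 3 such runs (the search used the letters CCC on the transcript strand), and 54.0% of 14671 coding internal exons within 10% of its length held at least 1. The Runx1 exon of 192 bases held 7 runs, where 88.3% of exons of like length held any. The Sidt2 exon of 69 bases and the U2af1l4 exon of 96 bases held 3 runs each, with shares of 49.3% and 63.6% among exons of like length. All 4 of these exons have a length that is a multiple of 3. The Pkm exons are each 167 bases long and carry the same base at 61.7% of positions; the nearer one held no run and the farther one 3, and 84.9% of exons of like length held at least 1. On the opposite strand (GGG as printed) the Dmtn, Runx1, Sidt2 and U2af1l4 exons held 1, 3, 0 and 1 runs and each Pkm exon 2, where 49.7%, 86.5%, 47.6%, 59.7% and 81.9% of exons of like length held any. A match is only a description of the letters.

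In the next 3 exons, capitals mark the bases that only the longer of 2 forms holds, so that the size of a splice site shift can be seen.
Blvrb, chr7:27459563-27459652, plus strand: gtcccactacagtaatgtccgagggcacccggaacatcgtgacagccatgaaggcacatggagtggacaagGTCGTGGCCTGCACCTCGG
Dhrs11, chr11:84825368-84825577, minus strand: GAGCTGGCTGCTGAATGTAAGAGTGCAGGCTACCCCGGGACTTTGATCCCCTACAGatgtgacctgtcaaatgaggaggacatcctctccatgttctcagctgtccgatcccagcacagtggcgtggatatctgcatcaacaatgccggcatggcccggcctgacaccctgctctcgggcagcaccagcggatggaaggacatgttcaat
Wdr26, chr1:181209003-181209107, minus strand: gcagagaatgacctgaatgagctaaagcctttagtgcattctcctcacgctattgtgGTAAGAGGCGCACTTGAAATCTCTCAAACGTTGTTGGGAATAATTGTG
The Blvrb exon has a longer form with 19 more bases at its 3' end and Dhrs11 one with 56 more bases at its 5' end, and neither number is a multiple of 3. The Wdr26 exon has a longer form with 48 more bases at its 3' end, which is a multiple of 3.

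The libraries held between 27033440 and 54096339 estimated reads. With its shRNAs Pcbp1 measured 14.2, 59.4 and 24.3 CPM (counts scaled to a common library size) at Day 0, where the controls measured 186, 197 and 206, a log2 difference of -2.59 ± 0.47 (SE; edgeR, adjusted p = 0.0231), and at Day 2 the difference was -2.83 (adjusted p = 0.00239). Pcbp2 went from 282, 285 and 299 CPM to 71.0, 70.3 and 73.5 with its shRNAs at Day 0 (log2 -2.01, adjusted p = 3.05e-12) and fell by 2.49 on the log2 scale at Day 2 (adjusted p = 5.71e-14). All 8 erythroid markers were above 1 TPM (length-scaled transcript abundance) in every library, and their summed TPM ran from 6871 to 10993 at Day 0 and from 395530 to 477450 at Day 2. The summed TPM of 3 early progenitor markers ran from 211 to 257 at Day 0 and from 3.32 to 6.65 at Day 2, and that of 3 hepatocyte markers from 1.48 to 4.27 and from 0 to 0.208. In bulk RNA, fewer cells of a type and less RNA per cell cannot be told apart.

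Most complex LSVs combined exon skipping with a shifted splice site. In the PCBP1 Day 0 table, 21943 (35.0%) combined an alternative 3' splice site with exon skipping, 14742 (23.5%) an alternative 5' splice site with exon skipping, 23967 (38.2%) all 3 kinds, and 2109 (3.36%) the 2 splice site kinds without skipping. Source LSVs made up 32309 and target LSVs 30452. A complex LSV held between 2 and 29 junctions in that table, with a median of 5, and a host gene held a median of 5 complex LSVs and at most 111. Complex LSVs in 1 gene often share junctions, so they are not independent of each other.

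Most of the junctions that made an LSV complex were absent from the annotation and carried little use. Of 347250 junctions of complex LSVs in the PCBP1 Day 0 table, 75.6% were not in GENCODE M21, and 73.4% of the complex LSVs held exactly 1 annotated junction. The percent spliced in (PSI) is the estimated share of an LSV's splicing that goes through 1 junction; the deposited value pools all libraries of a group and comes with no value per library, no depth and no error. In the pooled Day 0 controls an annotated junction had a mean PSI of 71.7% and an unannotated one 0.795%, and 88.0% of unannotated junctions had a PSI under 1%. The pooled Day 2 controls of the PCBP1 table had 1.78% on an unannotated junction on average. Unannotated junctions together carried 3.33% of the PSI in Day 0 controls and 8.40% in Day 2 controls.

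A junction is called used here when its PSI was at least 5% in the control or the knockdown. At least 2 junctions were used in 12840 complex LSVs (20.5%) of the PCBP1 Day 0 table, 12913 (20.3%) of the PCBP2 Day 0 table, 18305 (36.6%) of the PCBP1 Day 2 table and 19111 (38.8%) of the PCBP2 Day 2 table. The same measure was 14.9%, 15.2%, 30.2% and 32.8% in LSVs of 1 kind without an intron part. No complex LSV used more than 10 junctions in any table.

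Few complex LSVs stayed complex when only used junctions were counted. Over their used junctions, 3760 (5.99%) of the PCBP1 Day 0 table still showed 2 or 3 kinds, as did 3860 (6.08%) in the PCBP2 Day 0 table, 5148 (10.3%) in the PCBP1 Day 2 table and 5297 (10.8%) in the PCBP2 Day 2 table. Among those with at least 2 used junctions in the PCBP1 Day 0 table, 47.3% were reduced to exon skipping alone, 13.5% to an alternative 3' splice site alone and 9.90% to an alternative 5' splice site alone. In the PCBP1 Day 2 table these shares were 56.8%, 8.78% and 6.33%. Exon skipping therefore held the largest share of the single kinds in all 4 tables, and the splice site kinds took smaller shares at Day 2 than at Day 0.

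**Figure D1:**
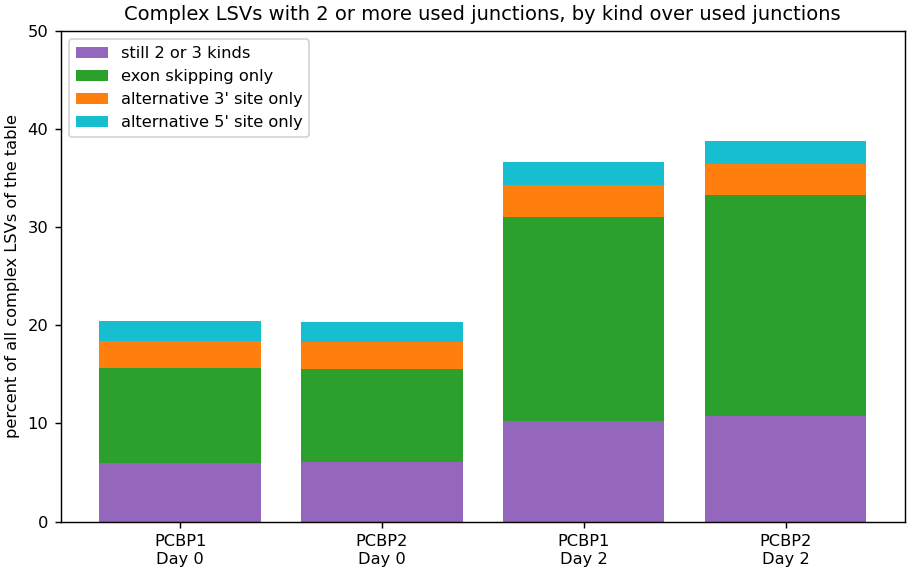
Stacked bars give the percentage of all complex LSVs of each deposited table (x axis) that had at least 2 used junctions, split by the kinds that remained over the used junctions; values are pooled and have no error bar. The bars reach 20.5% and 20.3% at Day 0 and 36.6% and 38.8% at Day 2, and exon skipping alone is the tallest part of each.

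Where the used junctions differed only in a 3' splice site, the shift was often small. Among 1664 such complex LSVs with 2 used junctions in the PCBP1 Day 0 table, the median shift was 6 bases, 26.3% were shifted by exactly 3 bases and 49.3% by a multiple of 3. At Day 2 the median over 1531 was 16 bases, 16.9% were shifted by 3 bases and 38.3% by a multiple of 3. Shifts of a 5' splice site were longer, with a median of 31 bases at Day 0 (33.7% multiples of 3, 1186 LSVs) and 36 bases at Day 2 (30.3%, 1078 LSVs). LSVs of 1 kind had a like pattern at their 3' splice sites, with a median of 5 bases and 26.6% shifted by 3 bases over 432 LSVs at Day 0.

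Use spread over more junctions as the number of listed junctions grew. The share of complex LSVs with at least 2 used junctions in the PCBP1 Day 0 table was 3.38% for those with 2 junctions, 14.4% with 3, 20.6% with 5, 28.3% with 8 to 10 and 35.2% with 16 or more. In the PCBP1 Day 2 table the same bins gave 8.18%, 24.0%, 36.3%, 47.6% and 58.8%. The effective number of junctions (1 divided by the sum of the squared PSI values, which is 1 when a single junction takes all splicing) had a median of 1.01 with 2 junctions and 1.05 with 16 or more in Day 0 controls, and of 1.01 and 1.30 in Day 2 controls. The leading junction's median PSI along the same bins went from 99.7% to 97.4% at Day 0 and from 99.3% to 87.5% at Day 2. At least 3 junctions were used in 12.9% of the complex LSVs with 16 or more junctions in the PCBP1 Day 0 table and in 27.5% in the PCBP1 Day 2 table.

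The 4 complex LSVs with the most junctions used 2 or 3 of them, and their effective numbers in controls ran from 1.30 (Igtp, Day 0) to 2.16 (Wdr26 and Ube2o, Day 2). Wdr26, a subunit of an E3 ubiquitin ligase, had 29 junctions at the exon printed above, of which the junction at chr1:181203160-181209051, from the shorter end, had a PSI of 60.3% and the one at chr1:181203160-181209003, from the longer end, 38.5% in Day 0 controls. The pair stood at 57.3% and 41.6% with PCBP1 knockdown, 57.5% and 40.7% with PCBP2 knockdown, at 57.7% and 35.9% in Day 2 controls, and at 61.9% and 32.7% with PCBP1 and 53.8% and 38.7% with PCBP2 knockdown at Day 2, so neither knockdown was more than 5 points from its controls on either junction. Igtp, an interferon-induced GTPase, also had 29 junctions, and 1 of them held 87.4% in Day 0 controls and 72.6% in Day 2 controls. Gm26561 (29 junctions, none annotated) had 66.4% on its leading junction in Day 2 controls, where the gene measured only 0.406, 0.0968 and 0.291 CPM. Ube2o, a ubiquitin-conjugating enzyme that clears proteins in maturing red cells, had 28 junctions and 66.3% on its leading junction in Day 2 controls, with 65.1% after PCBP1 and 47.6% after PCBP2 knockdown (probability of a change of at least 20 points 0.437).

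**Figure D2:**
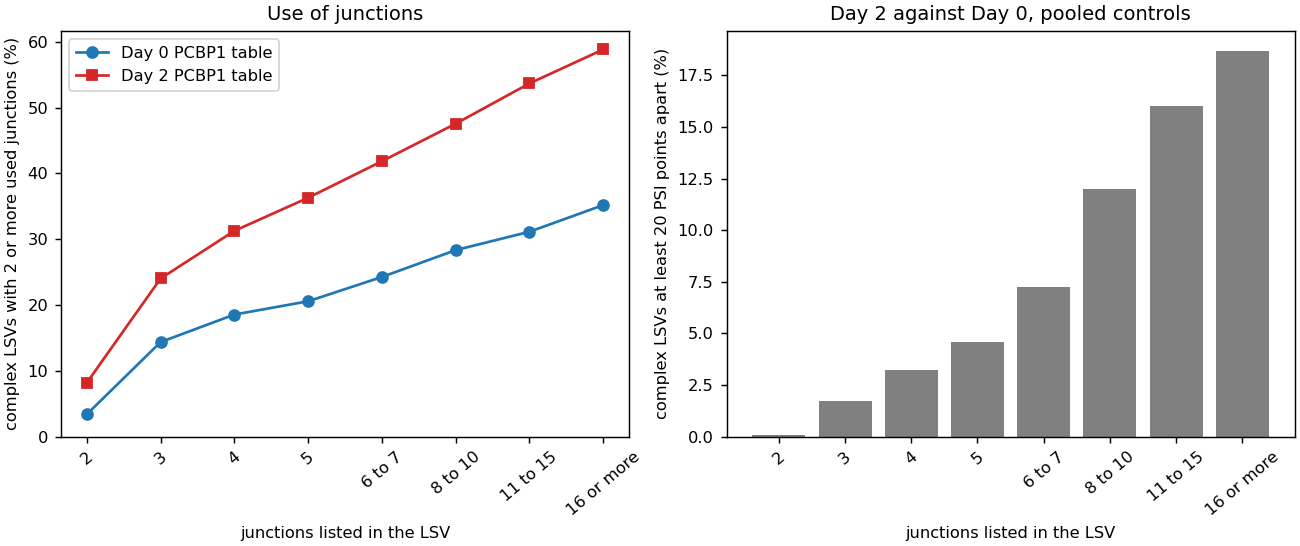
Left: percentage of complex LSVs with at least 2 used junctions (y axis) by the number of junctions listed (x axis) in the PCBP1 tables of Day 0 (circles) and Day 2 (squares). Right: percentage of complex LSVs with the same junctions on both days whose pooled control PSI differed by at least 20 points; both rise with the number of junctions, from 3.38% to 35.2% at Day 0 and from 0.0962% to 18.7% between the days.

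Knockdown moved the typical complex LSV little. The median effective number was 1.02 in Day 0 controls, 1.02 with PCBP1 knockdown and 1.02 with PCBP2 knockdown, and 1.07, 1.06 and 1.08 at Day 2. A leading junction of at least 95% was found in 79.6% of complex LSVs in the Day 0 controls, 78.4% with PCBP1 and 78.6% with PCBP2 knockdown. At Day 2 it was found in 60.0% in the controls, 63.7% with PCBP1 and 58.2% with PCBP2 knockdown, so the knockdowns lay on either side of the controls. These pooled values have no replicate error and were not tested.

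An LSV is called changed here when the deposited posterior probability of a PSI change of at least 20 points is 0.95 or more on any junction. Called complex LSVs numbered 37 in the PCBP1 Day 0 table (0.059%; all LSVs 0.0573%), 5 in the PCBP2 Day 0 table (0.00788%; all LSVs 0.0115%), 104 in the PCBP1 Day 2 table (0.208%; all LSVs 0.191%) and 42 in the PCBP2 Day 2 table (0.0853%; all LSVs 0.0718%). These shares lie near the background of all LSVs. In the same order, LSVs of 1 kind were called at 0.0413%, 0.0027%, 0.116% and 0.0646%, and LSVs with an intron part at 0.0803%, 0.0373%, 0.236% and 0.0417%. Host genes of the called complex LSVs numbered 33, 5, 86 and 41. The deposited expected change of the called ones ran from 27.4 to 61.7 points (median 34.2) in the PCBP1 Day 0 table, from 30.7 to 43.0 (median 34.9) in the PCBP2 Day 0 table, from 26.6 to 59.4 (median 37.0) in the PCBP1 Day 2 table and from 29.7 to 53.4 (median 36.3) in the PCBP2 Day 2 table. The median largest change over all complex LSVs was 0.54 points in the PCBP1 Day 2 table and 0.82 in the PCBP2 Day 2 table, against 0.33 and 0.51 over all LSVs.

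Called complex LSVs were spread over the bins of junction number. Calls in the PCBP1 Day 0 table made up 0.0203% of those with 3 junctions, 0.102% with 8 to 10, 0.215% with 11 to 15 and 0% (0 of 1174) with 16 or more. In the PCBP1 Day 2 table the values were 0.134%, 0.321%, 0.414% and 0.155%. Over used junctions, 13, 2, 44 and 21 of the called LSVs of the 4 tables still had 2 or 3 kinds and 21, 2, 52 and 18 were exon skipping alone. A called complex LSV was thus most often of exon skipping alone or of several kinds. The same 2 groups led among all complex LSVs with at least 2 used junctions, with 47.3% and 29.3% in the PCBP1 Day 0 table. The order of the kinds therefore does not set the called LSVs apart. The exon skipping flag means only that the junctions reach more than 1 other exon, so it does not show a cassette exon. A single alternative 3' splice site made up 1, 0, 2 and 2 of them, and a single alternative 5' splice site 2, 1, 6 and 1. The largest change lay on an annotated junction in 33 of 37 and 5 of 5 at Day 0, and in 70 of 104 and 26 of 42 at Day 2.

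**Figure D3:**
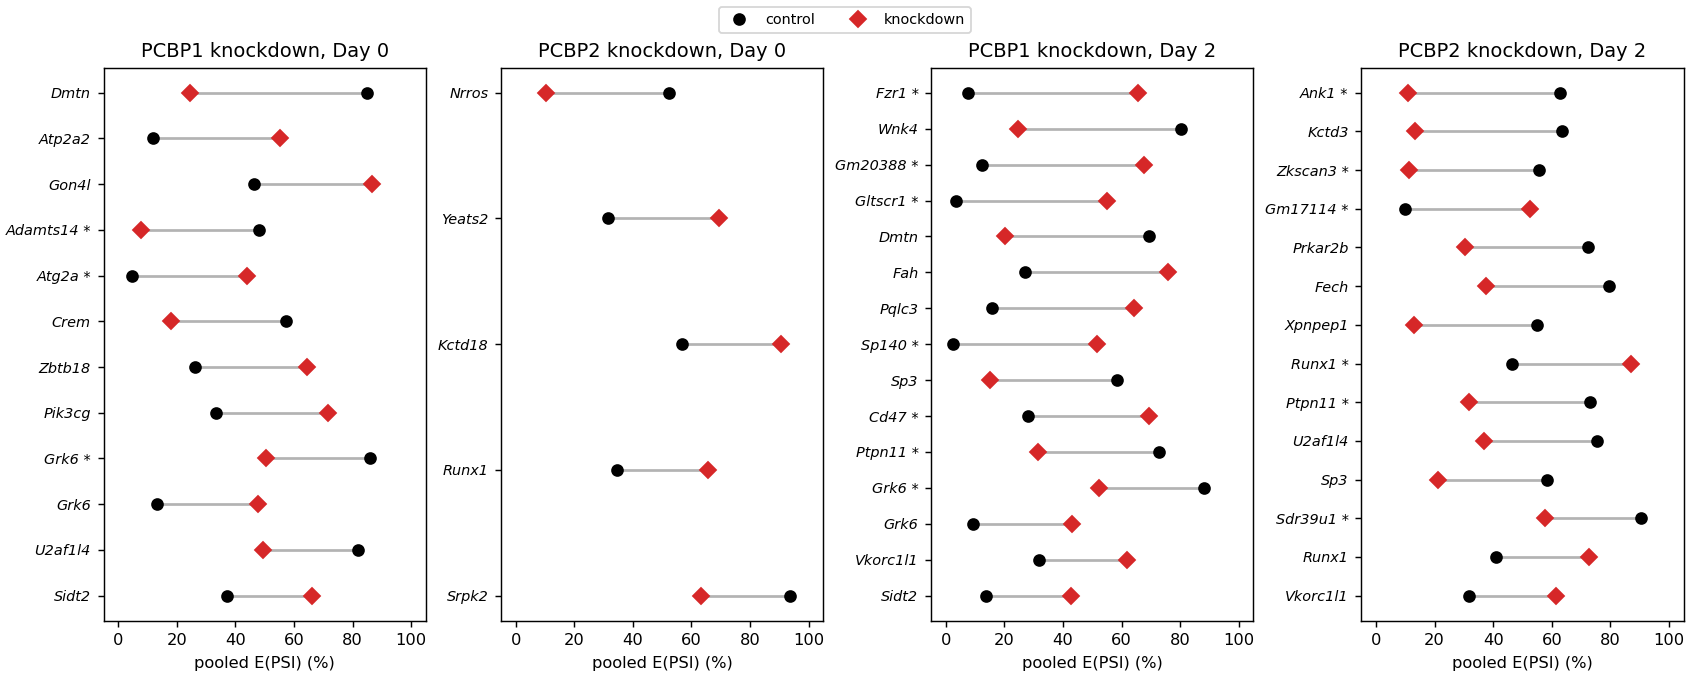
For each of the 4 tables, lines join the pooled control PSI (black circle) and the pooled knockdown PSI (red diamond) of the junction with the largest change in the called complex LSVs named in the text; an asterisk marks a junction not in the annotation, and pooled values have no error bar. The panel of PCBP2 knockdown at Day 2 also holds Sdr39u1, named in the comparison of the days. Dmtn has the longest line in the PCBP1 Day 0 panel, from 84.9% to 24.6%.

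Dmtn had the largest expected change with PCBP1 knockdown at Day 0. Dmtn encodes dematin, an actin-bundling protein of the red cell membrane skeleton. Its source LSV (7 junctions, exon chr14:70618191-70618606) had a PSI of 84.9% on the junction to the printed 75-base exon (chr14:70618029-70618239) in controls and 24.6% with PCBP1 knockdown, an expected change of -61.7 points, while the skipping junction chr14:70617440-70618239 went from 14.1% to 74.0%. The Day 2 inclusion junction went from 69.2% to 20.3% (expected change -50.4 points) with PCBP1 knockdown. With PCBP2 knockdown it stood at 70.1% at Day 0 (expected change -3.91 points) and at 47.4% at Day 2, with probabilities of a change of at least 20 points of 0.0029 and 0.611.

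The libraries of a group can be compared one by one only through transcript abundance. The junction share used for this is the TPM of the annotated transcripts that hold a junction divided by the TPM of those that hold any junction of the same LSV, tested with limma over 33204 junction shares and all 18 libraries. For the Dmtn inclusion junction the share was 92.1%, 92.7% and 93.6% in the Day 0 controls and 86.0%, 87.4% and 85.5% with PCBP1 knockdown. Every knockdown library lay below every control, but the log2 difference of -0.83 ± 0.19 (SE, n = 3 per group) did not pass after adjustment (limma, adjusted p = 0.0619). At Day 2 the shares were 90%, 92.3% and 91.3% in controls, 84.2%, 87.4% and 83.5% with PCBP1 knockdown (adjusted p = 0.0506) and 91.2%, 91.5% and 91.2% with PCBP2 knockdown. The shares moved the same way as the PSI and by far fewer points. Dmtn as a gene did not pass at Day 0 with PCBP1 knockdown (log2 -0.21, adjusted p = 0.647, edgeR) and fell by 0.87 ± 0.12 on the log2 scale at Day 2 (adjusted p = 6.69e-05).

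Sidt2, a lysosomal membrane protein that carries RNA, changed with PCBP1 knockdown on both days. Its target LSV has 12 junctions, and the junction from the printed exon (chr9:45947055-45947629) went from 37.1% to 66.3% PSI at Day 0 (expected change 29.5 points) and from 13.8% to 42.9% at Day 2 (29.4 points). The junction shares were 27.9%, 27.3% and 23.1% in Day 0 controls and 37.8%, 37.6% and 35.6% with PCBP1 knockdown, and the groups did not overlap (log2 0.72 ± 0.15, limma adjusted p = 0.0480). Day 2 values were 27.7%, 28.8% and 23.3% against 38.1%, 36.4% and 38.0% (log2 0.73 ± 0.15, adjusted p = 0.0407). Both calls were fragile: with any 1 of the 6 libraries of the comparison left out the adjusted p passed in 0 of 6 fits at Day 0 (up to 0.134, without PCBP1 knockdown replicate 1) and in 1 of 6 at Day 2 (up to 0.159, without control replicate 3). With PCBP2 knockdown the shares were 26.6%, 24.1% and 28.0% at Day 0 and 25.8%, 26.3% and 24.6% at Day 2, inside or near the control range.

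U2af1l4, a relative of the small subunit of the U2AF splicing factor that recognises 3' splice sites, was the only gene of the splicing regulator list with a called complex LSV. The junction from the printed 96-base exon (chr7:30564798-30565095) had a PSI of 81.7% in Day 0 controls and 49.6% with PCBP1 knockdown (expected change -33.4 points, probability 0.986). At Day 2 it had 75.5% in controls, 36.8% with PCBP2 knockdown (-39.8 points, probability 0.994) and 49.6% with PCBP1 knockdown, which was not called (probability 0.463). The skipping junction chr7:30564607-30565095 stood at 14.9% and 37.9% in the PCBP1 Day 0 table (probability 0.748). Junction shares of the inclusion junction were 84.7%, 83.4% and 87.6% in Day 0 controls and 55.0%, 75.2% and 60.8% with PCBP1 knockdown, all below the controls (log2 -1.58 ± 0.42, limma adjusted p = 0.121). At Day 2 the controls had 89.6%, 87.2% and 79.2%, PCBP1 knockdown 44.9%, 71.6% and 62.3% (adjusted p = 0.0776) and PCBP2 knockdown 59.9%, 76.0% and 50.8% (adjusted p = 0.188), and neither passed.

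Grk6, a kinase of G protein-coupled receptors, had a source and a target LSV called with PCBP1 knockdown on both days. In both, the 2 leading junctions have ends that differ by 1 base on one side and 2 on the other, and whether reads were placed rightly between them was not tested. The source and target LSV share these junctions, so they count the same choice once each. In the source LSV, the unannotated junction chr13:55459146-55459782 held 82.9% in Day 0 controls and 49.3% with PCBP1 knockdown, and the annotated junction chr13:55459147-55459784 went from 13.2% to 47.7% (expected change 35.9 points). At Day 2 the annotated junction went from 9.20% to 43.1%. With PCBP2 knockdown the unannotated junction had 80.5% at Day 0 and 69.7% at Day 2, where the controls had 69.9%.

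The next largest expected changes with PCBP1 knockdown at Day 0 lay in complex LSVs of Atp2a2, Gon4l, Adamts14, Atg2a, Crem, Zbtb18 and Pik3cg. Of these, Adamts14 had a very low gene level, from 0.381 to 0.656 CPM in the libraries of this comparison. None of the 3 junctions of its LSV was annotated. Atp2a2, the calcium pump of the endoplasmic reticulum, went from 12% to 55.3% on the junction chr5:122454304-122455893 (expected change 44.3 points); its junction shares were 51.6%, 51.3% and 49.2% in controls and 62.3%, 54.7% and 60.9% with knockdown (limma adjusted p = 0.382). Gon4l went from 46.3% to 86.6% on an annotated junction. Crem, a transcription factor that answers cyclic AMP, went from 57.3% to 17.9% on 1 junction, with junction shares of 42.2%, 33.8% and 52.9% against 32.6%, 37.6% and 36.2%, which overlapped. Pik3cg, a catalytic subunit of phosphoinositide 3-kinase, went from 33.4% to 71.5%, while its junction shares of 10.3%, 18% and 12.8% and of 16%, 19.8% and 13.6% overlapped. Zbtb18 moved from 26.2% to 64.6% PSI on a junction whose shares went the other way (46.0%, 63.1% and 60.1% in controls, 49.6%, 49.0% and 36.3% with knockdown), the 1 exception among 24 called complex LSVs of that table whose leading junction had a tested share.

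Runx1 held the only complex LSV called with PCBP2 knockdown on both days, with an expected change below the median of the called LSVs in each table. The gene encodes a transcription factor needed for blood stem cells to form and for megakaryocytes to mature. Its target LSV at exon chr16:92613599-92613760 has 12 junctions. In Day 0 controls the junction from the printed 192-base exon (chr16:92613760-92644154) held 62.1% and the skipping junction (chr16:92613760-92668708) 34.7%. With PCBP2 knockdown these stood at 32.0% and 65.6%, an expected change of 31.3 points on the skipping junction (probability 0.982), and at Day 2 the skipping junction went from 41.0% to 72.6% (32.5 points, probability 0.993). With PCBP1 knockdown it stood at 36.2% at Day 0 and 51.2% at Day 2, and neither was called.

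The Runx1 junction shares gave a value for each library. For the skipping junction they were 40.8%, 40.3% and 40.5% in Day 0 controls and 40.4%, 46.2% and 44.1% with PCBP2 knockdown, which overlapped (limma adjusted p = 0.982). Day 2 values were 39.0%, 42.3% and 36.5% in controls and 51.5%, 53.9% and 57.0% with PCBP2 knockdown, without overlap (log2 0.83 ± 0.18, adjusted p = 0.0865). PCBP1 knockdown gave 35.2%, 37.2% and 37.8% at Day 2. The Runx1 gene fell by 0.49 ± 0.13 on the log2 scale with PCBP2 knockdown at Day 2 (edgeR, adjusted p = 0.0347), from 230, 224 and 330 CPM to 197, 189 and 173 CPM. A further Runx1 LSV, called at Day 2, lay on unannotated junctions, of which chr16:92824980-92825589 went from 46.3% to 86.9%.

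The remaining complex LSVs called with PCBP2 knockdown at Day 0 were in Nrros, Yeats2, Kctd18 and Srpk2. Nrros, a leucine-rich repeat protein that limits reactive oxygen species, went from 52.3% to 10.5% on the junction chr16:32147673-32165380 (expected change -43.0 points), with junction shares of 73.0%, 71.1% and 66.2% in controls and 52.0%, 34.5% and 62.8% with knockdown (limma adjusted p = 0.631). Yeats2, a reader of histone acylation, went from 31.5% to 69.5% on the junction that skips a 170-base exon (37.8 points). Kctd18 went from 56.8% to 90.6% on the junction chr1:57963261-57965329, which uses a longer exon end (34.9 points), with junction shares of 58.9%, 48.5% and 42.4% against 68.1%, 75.7% and 60.6% (adjusted p = 0.617). Srpk2, a kinase of SR splicing proteins, went from 93.8% to 63.2% on its leading junction (-30.7 points).

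PCBP1 knockdown at Day 2 had the most called complex LSVs. Fzr1, an activator of the anaphase-promoting complex, went from 7.50% to 65.5% on an unannotated junction (expected change 59.4 points). Wnk4, a kinase that controls ion transport, went from 80.3% to 24.5% on an annotated junction (-57.4 points), and Gltscr1 from 3.50% to 55.0% on an unannotated one. Fah, the last enzyme of tyrosine breakdown, went from 27.0% to 75.8% on the annotated junction chr7:84602191-84605643, with junction shares of 86.2%, 86.7% and 77.9% in controls and 94.2%, 90.5% and 91.9% with knockdown (limma adjusted p = 0.105). Cd47, a surface signal that keeps red cells from being engulfed, went from 27.9% to 69.4% on an unannotated junction. Dmtn, Gm20388, Pqlc3 and Sp140 were with Fzr1, Wnk4, Gltscr1 and Fah the 8 genes with the largest expected changes, and Cd47 is named as a gene of the membrane list. With PCBP2 knockdown at Day 2 the highest probability in the same LSV was 0.945 for Fzr1, 0.842 for Pqlc3 and 0.646 for Dmtn. Fzr1 thus lay just under the 0.95 of a call. For Wnk4, Gm20388, Gltscr1, Fah and Sp140 it was at most 0.00715. A call in 1 table alone does not show that the other knockdown left the LSV unchanged.

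Besides Runx1, calls with PCBP2 knockdown at Day 2 included the erythroid genes Ank1 and Fech. Ank1, the ankyrin that ties the spectrin skeleton to the membrane, went from 62.9% to 11% on the unannotated junction chr8:23035245-23037167 (expected change -53.4 points) and from 34.9% to 80.1% on chr8:23035245-23037221. Fech, the ferrochelatase that puts iron into heme, went from 79.4% to 37.4% on the junction chr18:64483457-64488901 (-42.6 points) and from 6.80% to 38.3% on chr18:64483457-64488750, both annotated. As genes, Ank1 fell by 0.37 ± 0.09 on the log2 scale (edgeR, adjusted p = 0.0187), from 1782, 1742 and 1771 CPM to 1472, 1271 and 1361 CPM, and Fech had a log2 difference of -0.08 (adjusted p = 0.740). Kctd3 went from 63.6% to 13.4% (-51.7 points), Prkar2b, a regulatory subunit of protein kinase A, from 72.3% to 30.4% (-43.4 points), and Zkscan3 from 55.8% to 11.2%. Gm17114 went from 9.90% to 52.6% on an unannotated junction. The Prkar2b junction shares did not show this, with 24.6%, 26.7% and 35.9% in controls and 26.8%, 23.0% and 24.7% with knockdown. Xpnpep1, an aminopeptidase, went from 55.0% to 13%, and its junction shares of 65.6%, 72.0% and 65.2% against 58.6%, 53.8% and 59.6% did not overlap (adjusted p = 0.529). With PCBP1 knockdown at Day 2 the highest probability in the same LSV was 0.922 for Gm17114 and 0.885 for Kctd3, not far under a call. It was 0.142 for Prkar2b, 0.104 for Fech, 0.0069 for Zkscan3 and 0.0032 for Ank1.

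In all, 179 complex LSVs were called in at least 1 of the 4 tables, and 9 of them, in 8 genes, were called in 2 tables. PCBP1 knockdown had 4 on both days (Dmtn, Sidt2 and both Grk6 LSVs), which is 10.8% of its Day 0 calls and 3.85% of its Day 2 calls, and 17 of its 37 Day 0 calls were listed in the Day 2 table at all. PCBP2 knockdown had 1 on both days (Runx1), of 5 and 42. Only 2 of its 5 Day 0 calls were listed in the Day 2 table. Of all 62761 complex LSVs listed with PCBP1 knockdown at Day 0, 47203 had the same junctions at Day 2. Of all 63456 listed with PCBP2 knockdown at Day 0, 45344 were found on both days with both knockdowns. The Day 0 calls with PCBP1 knockdown were thus listed at Day 2 less often than complex LSVs in general. Having the same junctions is a narrower condition than being listed, and the difference, which rests on 37 calls, was not tested. A call could recur only where the LSV was listed on both days. These overlaps are counts of a few LSVs and are given as a description, with no overlap of calls over all LSVs beside them. At Day 2, where both comparisons use the same controls, Sp3, Ptpn11 and Vkorc1l1 were called in both tables. U2af1l4 was called with PCBP1 knockdown at Day 0 and PCBP2 knockdown at Day 2.

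The 3 shared Day 2 calls read as follows. Sp3, a zinc finger transcription factor, had 58.4% on its annotated junction chr2:72979632-72980250 in controls, 15% with PCBP1 knockdown and 21.3% with PCBP2 knockdown, and its unannotated junction chr2:72971514-72980250 had 36.1%, 77.1% and 64.9%. Ptpn11, the phosphatase SHP2 of growth factor signalling, had 72.9%, 31.6% and 31.8% on an unannotated junction. Vkorc1l1, a reductase of vitamin K, had 31.8%, 62.0% and 61.3% on the annotated junction chr5:129978628-129982141. Its junction shares were 59.6%, 64.2% and 60.4% in controls, 58.9%, 59.1% and 60.2% with PCBP1 knockdown and 63.8%, 63.2% and 65.3% with PCBP2 knockdown, so the pooled PSI and the transcript abundances differed for this gene.

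Junction shares were tested for annotated junctions with a mean share between 2% and 98%. The transcripts with any annotated junction of the LSV also had to have a mean summed TPM of at least 1. With PCBP1 knockdown 66 of 10509 complex LSVs held a called share at Day 0 (0.628%; all LSVs 0.667%) and 83 of 7099 at Day 2 (1.17%; all LSVs 0.909%). With PCBP2 knockdown 3 of 10719 did at Day 0 (0.028%; all LSVs 0.0551%) and 6 of 6937 at Day 2 (0.0865%; all LSVs 0.0661%). When 1% was added to each share in place of the 0.5 TPM added to each abundance, 26, 2, 130 and 48 passed in the order PCBP1 Day 0, PCBP2 Day 0, PCBP1 Day 2 and PCBP2 Day 2. Fits on the 9 libraries of a day gave 31, 0, 11 and 1, and leaving out 1 library gave 15 to 62, 0 to 11, 0 to 162 and 0 to 80, so these counts rest on single libraries. The lowest counts came without PCBP1 knockdown replicate 4 (15), PCBP2 knockdown replicate 1 (0), control replicate 2 (0) and PCBP2 knockdown replicate 4 (0), and the highest at Day 2 without control replicate 1. At an unadjusted p under 0.05 there were 2314, 1248, 2126 and 1493 junction shares of complex LSVs in the same order. Some shares pass this threshold without any change. The number of shares tested in complex LSVs and the count over all LSVs do not stand beside them, so these counts are not read as changes. Of the called complex LSVs whose leading junction had a tested share, 23 of 24, 3 of 3, 24 of 25 and 11 of 11 moved the same way in both measures. Both measures come from the same libraries, so this is no independent support. The count takes the direction alone, also where the libraries of the groups overlapped.

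The junction shares with the smallest p at Day 0 belonged to PCBP1 knockdown. Blvrb encodes biliverdin reductase B, which handles products of heme breakdown. Its source LSV (16 junctions) offers the 2 exon ends printed above, and the share of the junction from the shorter end (chr7:27459633-27462567) was 4.76%, 4.75% and 6.18% in Day 0 controls and 18.6%, 15.1% and 19.8% with PCBP1 knockdown. The groups were far apart, with a log2 difference of 1.96 ± 0.16 (limma, adjusted p = 2.89e-05), and all 6 fits with a library left out passed. The pooled PSI of that junction went from 3.40% to 19.9%, under the 20 points that a call needs. PCBP2 knockdown gave 9.63%, 10.5% and 8% at Day 0 (log2 0.90 ± 0.16, adjusted p = 0.0712).

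The Blvrb share at Day 2 was 18.9%, 19.0% and 17.2% in controls, 29.4%, 23.2% and 28.2% with PCBP1 knockdown (adjusted p = 0.0538) and 23.5%, 24.3% and 25.1% with PCBP2 knockdown (adjusted p = 0.249). All 6 knockdown libraries lay above all 3 controls, and neither comparison passed. The Blvrb gene fell by 1.06 ± 0.14 on the log2 scale with PCBP1 knockdown at Day 0 (edgeR, adjusted p = 0.000223), from 132, 144 and 122 CPM to 54.4, 76.5 and 60.3 CPM. It also fell by 1.11 at Day 2 (adjusted p = 1.94e-05).

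Pkm encodes pyruvate kinase, and its 2 printed exons are alternatives: the nearer one is known from the form of adult muscle and the farther one from the form of dividing cells. The source LSV has 14 junctions. The share of the junction to the nearer exon (chr9:59672073-59675029) was 7.38%, 6.03% and 6.81% in Day 0 controls and 20.9%, 15.3% and 18.3% with PCBP1 knockdown (log2 1.60 ± 0.17, limma adjusted p = 0.000656), and passed in all 6 fits with a library left out. With PCBP2 knockdown it was 9.80%, 12.3% and 10.1% (adjusted p = 0.259). At Day 2 it was 32.5%, 37.2% and 35.2% in controls, 46.3%, 49.0% and 54.0% with PCBP1 knockdown (adjusted p = 0.0342) and 46.9%, 49.2% and 56.1% with PCBP2 knockdown (adjusted p = 0.0565). The Day 2 call with PCBP1 knockdown was lost in all 6 fits with a library left out (adjusted p up to 0.114, without PCBP1 knockdown replicate 4). The pooled PSI of this junction was 2.10% in Day 0 controls, 10.0% with PCBP1 knockdown and 19.1% in Day 2 controls, lower than the share in each case, and part of the PSI at Day 2 (16.4% in controls) lay on an unannotated junction.

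Fhdc1, a formin-related protein of the cytoskeleton, and Dhrs11, a dehydrogenase, also differed at Day 0. The share of the Fhdc1 junction chr3:84474777-84478950 was 1.61%, 2.92% and 2.90% in controls and 13.6%, 13.1% and 12.4% with PCBP1 knockdown (log2 1.99 ± 0.24, limma adjusted p = 0.00126). The share of the Dhrs11 junction to the shorter exon (chr11:84825521-84828751) was 14.9%, 15.1% and 13.1% in controls and 27.8%, 23.0% and 27.9% with PCBP1 knockdown (log2 1.07 ± 0.13, adjusted p = 0.00126). Both passed in all 6 fits with a library left out. Dhrs11 as a gene fell by 0.87 on the log2 scale (edgeR, adjusted p = 0.00468), and Fhdc1 did not pass (log2 -0.05, adjusted p = 0.979). At Day 2 the Dhrs11 shares of 30.7%, 35.9% and 33.0% in controls and 32.1%, 32.1% and 34.0% with PCBP1 knockdown overlapped, and so did the Fhdc1 shares of 15.8%, 14.2% and 12.4% against 19.9%, 12.6% and 15.7%.

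**Figure D4:**
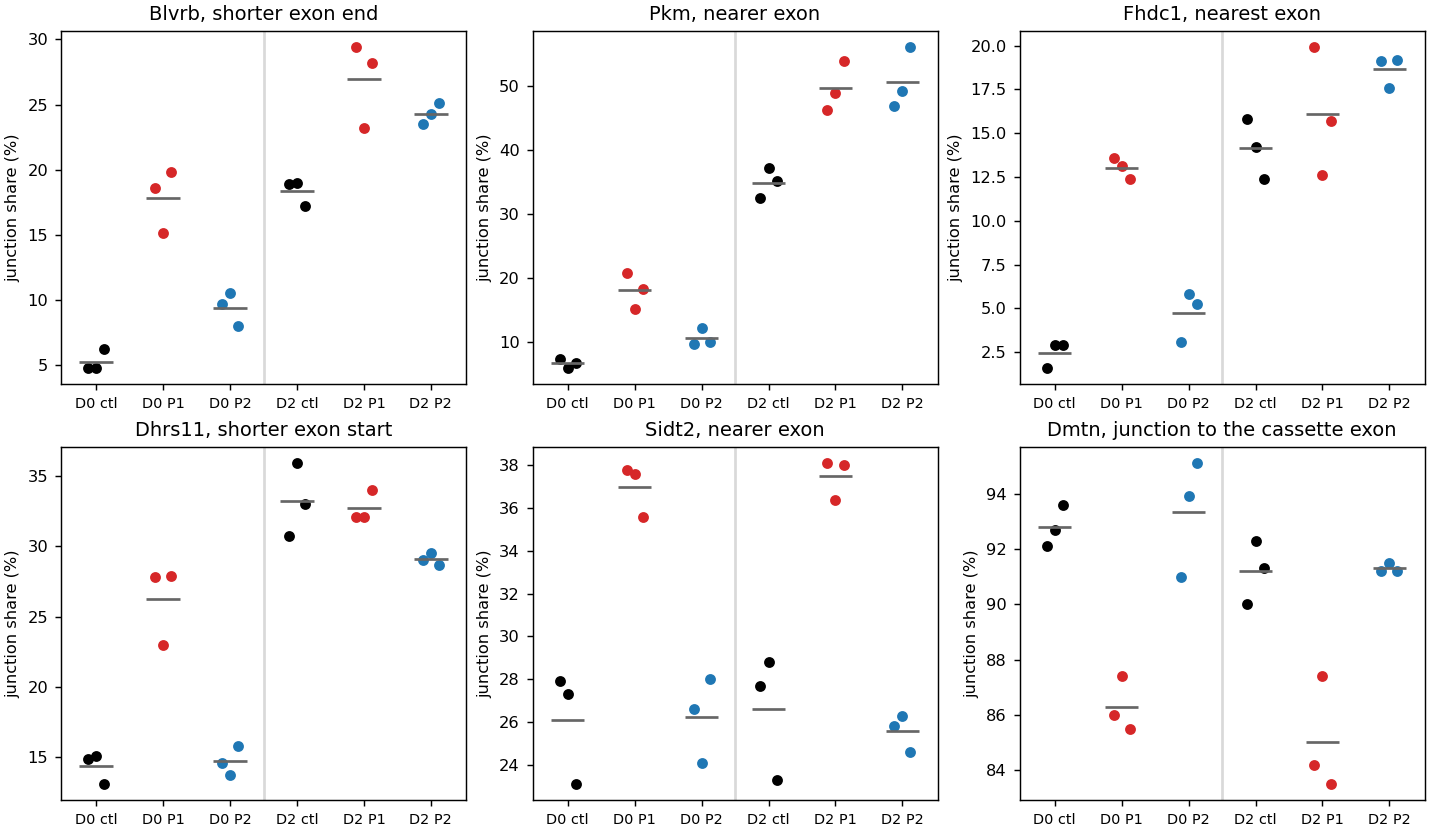
Junction share in percent (y axis) of 1 junction in each of 6 genes, 1 point per library and a grey bar at the mean of the 3 libraries, for controls (black), PCBP1 (red, P1) and PCBP2 (blue, P2) knockdown at Day 0 (D0) and Day 2 (D2); the y axes differ between panels. In the Blvrb panel the Day 0 controls lie between 4.75% and 6.18% and the PCBP1 knockdown libraries between 15.1% and 19.8%.

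In the same 4 genes the shares also differed between the days in controls, and such a difference was common. With 0.5 TPM added, 68.1% of complex LSVs and 68.6% of all LSVs with a tested share held a share called between the days. From Day 0 to Day 2 the log2 difference was 2.01 ± 0.16 for Blvrb (limma, adjusted p = 6.94e-08), 2.90 ± 0.17 for Pkm (adjusted p = 4.90e-09), 2.00 ± 0.24 for Fhdc1 (adjusted p = 3.91e-06) and 1.53 ± 0.13 for Dhrs11 (adjusted p = 1.46e-07). These comparisons share the Day 0 controls with those of the Day 0 knockdowns, so the values stand side by side only. In Dmtn, Sidt2 and Runx1 the shares named above did not pass between the days, with adjusted p values of 0.70, 0.906 and 0.679. Other shares of the Sidt2 LSV did pass, at chr9:45947055-45947836 (limma, adjusted p = 0.00129) and chr9:45947055-45948215 (adjusted p = 0.000271). The pooled control PSI of the named Dmtn and Sidt2 junctions was also lower at Day 2 than at Day 0, so these genes are not shown to be stable.

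The other junction shares named by the rule held less well when a library was left out. Stk17b, a kinase of the death-associated family, had shares of 100% in all 3 Day 0 controls and 94.4%, 93.8% and 96.8% with PCBP2 knockdown (log2 -1.34 ± 0.17, limma adjusted p = 0.0131), and 1 of 6 fits with a library left out lost it (0.0597 without PCBP2 knockdown replicate 1). It was also lost with 1 TPM added in place of 0.5 (adjusted p = 0.0628), and with the other junction at 0 in the controls the log2 difference depends on that added value. Slc22a23, a solute carrier, had 35.2%, 38.0% and 35.2% in Day 2 controls and 17.9%, 24.8% and 17.9% with PCBP1 knockdown (adjusted p = 0.0195; up to 0.0794 without control replicate 3). Ndufa7, a subunit of respiratory complex I, had 88.9%, 91.1% and 93.4% against 77.3%, 83.7% and 76.1% with PCBP2 knockdown at Day 2 (adjusted p = 0.0435; up to 0.159 without PCBP2 knockdown replicate 4). Tcp11l1, Bre, Rpl15, Mbd2 and Hjurp were further calls with PCBP1 knockdown at Day 2, Hjurp and Fkbp8 with PCBP2 knockdown at Day 2, and Paox and Mlst8 with PCBP2 knockdown at Day 0. Of these, the Mbd2 call could not be refitted with a library left out, Mlst8 passed in 1 of 4 such fits, and the others passed in at most 3 of 6.

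Host genes of complex LSVs were tested as genes with edgeR over 17500 genes. With PCBP1 knockdown at Day 0, 121 of 8532 host genes passed (1.42%; all genes 0.891%), 3 higher (0.0352%; all genes 0.0343%) and 118 lower (1.38%; all genes 0.857%). With 1 library left out this count was between 14 (without PCBP1 knockdown replicate 1) and 103, and it was 318 with DESeq2 and 858 in a fit on the 9 Day 0 libraries. With PCBP2 knockdown at Day 0, 3 of 8634 passed (0.0347%; all genes 0.0229%), all lower, among them Pcbp2 itself. At Day 2, 1433 of 6443 passed with PCBP1 knockdown (22.2%; all genes 13%), 568 higher (8.82%; all genes 5.45%) and 865 lower (13.4%; all genes 7.51%). With PCBP2 knockdown at Day 2, 541 of 6376 passed (8.48%; all genes 4.67%), 75 higher (1.18%; all genes 0.954%) and 466 lower (7.31%; all genes 3.72%). Of the host genes of called complex LSVs, 0 were higher and 3 lower of 33 with PCBP1 knockdown at Day 0. At Day 2, 4 were higher and 22 lower of 86 with PCBP1 knockdown, and 1 higher and 4 lower of 40 with PCBP2 knockdown. Most of these genes did not pass, which held for host genes in general. In each of these comparisons the share of lower genes was above that of all host genes (1.38%, 13.4% and 7.31%). The shares of higher genes lay on both sides of those of all host genes. These differences were not tested.

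Counts in the gene lists are read beside the shares over all complex LSVs (0.059%, 0.00788%, 0.208% and 0.0853% called in the PCBP1 Day 0, PCBP2 Day 0, PCBP1 Day 2 and PCBP2 Day 2 tables). With 0 to 2 calls a list, no list is set apart by them. The red cell membrane and cytoskeleton list had complex LSVs in 20 of 23 genes: 1 of 351 was called with PCBP1 knockdown at Day 0 (Dmtn), 2 of 377 at Day 2 (Dmtn and Cd47), 0 of 352 with PCBP2 knockdown at Day 0 and 1 of 383 at Day 2 (Ank1). The erythroid transcription factors had 1 of 116 called with PCBP2 knockdown at Day 0 and 2 of 113 at Day 2, all in Runx1, and none of 115 and 108 with PCBP1 knockdown. The heme and iron list had 1 of 174 called with PCBP2 knockdown at Day 2 (Fech) and none in the other tables. The splicing regulators had 1 of 436 called with PCBP1 knockdown at Day 0 and 1 of 411 with PCBP2 knockdown at Day 2, both U2af1l4, and none in the other 2 tables. The PCBP family with hnRNP K, the cell cycle and replication list and the chromatin and DNA methylation list had none called in any table, of 36, 215 and 186 complex LSVs in the PCBP1 Day 0 table.

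The median largest change at Day 2 over all complex LSVs was 0.54 points with PCBP1 and 0.82 with PCBP2 knockdown. It was 1.53 and 1.84 in the erythroid transcription factors, 0.89 and 1.07 in the PCBP family with hnRNP K, 0.32 and 0.86 in the splicing regulators, 0.17 and 0.26 in the heme and iron list, 0.07 and 0.09 in the chromatin list, 0.06 and 0.12 in the cell cycle list, and 0.00 and 0.00 in the membrane list. The lists thus lay on both sides of the value over all complex LSVs.

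Host genes of the lists at Day 2 are read beside all genes and beside all host genes of complex LSVs. Of all genes, 5.45% were higher and 7.51% lower with PCBP1 knockdown and 0.954% higher and 3.72% lower with PCBP2 knockdown. Of all host genes, 8.82% were higher and 13.4% lower with PCBP1 knockdown and 1.18% higher and 7.31% lower with PCBP2 knockdown. In the membrane list 1 was higher and 12 were lower of 20 with PCBP1 knockdown, and 0 and 6 with PCBP2 knockdown. Among 16 erythroid transcription factors 1 was higher and 9 were lower with PCBP1 knockdown, and 0 and 6 with PCBP2 knockdown. The heme and iron list had 1 higher and 9 lower of 19 with PCBP1 knockdown, and 0 and 4 with PCBP2 knockdown. The cell cycle list had 5 higher and 2 lower of 19 with PCBP1 knockdown, and 0 and 2 with PCBP2 knockdown. The splicing regulators had 3 higher and 2 lower of 43 with PCBP1 knockdown, and 0 and 3 of 42 with PCBP2 knockdown. The chromatin list had 3 higher and 1 lower of 10, and 0 and 1 of 10. The PCBP family with hnRNP K had 0 and 0 of 2, and 0 and 1 of 2.

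Between the days the pooled controls spread their splicing over more junctions. For 47203 complex LSVs with the same junctions on both days, the median effective number was 1.01 at Day 0 and 1.06 at Day 2, and it was higher at Day 2 in 83.6% and lower in 15.5%. The share with a leading junction of at least 95% was 85.0% at Day 0 and 62.1% at Day 2. A PSI difference of at least 20 points was found in 2941 (6.23%; all LSVs 5.17%; LSVs of 1 kind 3.46%), and its share grew with the number of junctions, from 0.0962% with 2 junctions to 4.57% with 5 and 18.7% with 16 or more. Pooled PSI values gave no test of this difference, and the depth behind each PSI is unknown.

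The largest differences between the days were near-complete switches. Fig4, a phosphoinositide phosphatase, went from 99.8% to 7.10% on its annotated junction and from 0% to 87.8% on an unannotated one. Tnrc6a, a scaffold of microRNA silencing, went from 98.3% to 8.30% on 1 annotated junction and from 1.60% to 90.5% on another. Lrp6, a Wnt co-receptor, went from 98.1% to 12.1%, Thada from 96.9% to 7.90%, Sdr39u1 from 99.5% to 7.70%, Pet112 from 95.8% to 7.20% and Tssc1 from 92.3% to 6.80%. Only Tlcd2 among these 8 genes had a tested junction share: the junction chr11:75468377-75468557 had 96.3%, 97.7% and 100% in Day 0 controls and 77.9%, 77.2% and 72.9% in Day 2 controls (log2 -2.79 ± 0.36, limma adjusted p = 7.19e-06), where its PSI went from 97.8% to 8.80%. The direction was the same in both measures and the size was not.

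By junction shares, 7585 of 11140 complex LSVs held a share that differed between the days in controls (68.1%; all LSVs 68.6%), and 3489 did with the 1% share offset, so the count depends on the scaling. Of the host genes, 8111 of 8981 passed between the days (90.3%; all genes 82.8%), 2974 higher (33.1%; all genes 40.4%) and 5137 lower (57.2%; all genes 42.4%). The median log2 difference of host genes was -0.70, beside -0.05 over all genes. Marker levels moved over the same interval. The summed erythroid markers, carried mostly by the globins, were higher at Day 2, while Klf1 overlapped (95.8 to 124 TPM at Day 0 and 85.5 to 152 at Day 2). The summed TPM of 3 granulocyte markers ran from 709 to 873 at Day 0 and from 86.1 to 188 at Day 2, that of 3 macrophage markers from 8.68 to 14.2 and from 0.751 to 1.33, and that of 3 megakaryocyte markers from 397 to 453 and from 224 to 448. The markers within a sum did not all move together. The granulocyte marker Ngp rose from at most 73.1 TPM at Day 0 to at least 79.4 TPM at Day 2, while Elane and Mpo fell. The megakaryocyte marker Itga2b rose from at most 79.9 TPM to at least 84.6 TPM, while Pf4 fell and Gp9 overlapped. The part of these markers and of the early progenitor markers in the splicing differences was not tested.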

How the data were processed

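Total RNA of 18 libraries was sequenced after TruSeq preparation, per the labels' protocols. Per the submitters' processing notes the tools included FastQC 0.11.9, Trim Galore 1.46.0, STAR 2.5.3a, SAMtools 1.9 and Salmon 0.11.3, with GRCm38. Per the file headers, the authors deposited Salmon's estimated counts, effective lengths and TPM for each transcript and library. They also deposited 4 LSV tables of pooled E(PSI), expected PSI change and its probabilities, whose tool is not given in the sources used here. E(PSI) is the table's own expected value, and the expected change is not simply the difference of 2 PSI values. Annotation was taken from GENCODE M21, because the deposited de novo flag was 1 on 93.6% of annotated and 0.0925% of unannotated junctions of complex LSVs.

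Estimated counts were rounded and tested per gene with edgeR 4.0.16 (R 4.3.3, quasi-likelihood, TMM, 17500 genes, 18 libraries, 6 group means). Junction shares used the deposited TPM, with 0.5 TPM added, and limma 3.58.1. A tested share had a mean of 2% to 98%, and the transcripts with any annotated junction of its LSV had a mean summed TPM of at least 1. Adjustment was by Benjamini and Hochberg over all features, with a threshold of 0.05. Gene fits and share fits were tested on simulated data. DESeq2 1.42.0 was an alternative. A share offset of 1% and the restriction to complex LSVs still of 2 or more kinds were chosen after seeing the data. Shares see only annotated junctions and rest on Salmon's division of reads between transcripts.

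Genes were named by rule: up to 8 called LSVs per table by largest change, LSVs called in 2 tables, called LSVs of the gene lists, the 4 with most junctions, up to 8 by PSI difference between the days, and up to 6 junction shares per knockdown by smallest p. Igtp, Wdr26, Gm26561 and Ube2o come from the junction count. A gene that the rule names among the junction shares is not reported here. The LSVs and lists were chosen with earlier results of these data known. The shRNA numbers recur on both days, but deviations from the group means of libraries with 1 shRNA correlated between the days at -0.0092 to 0.0418 over 17500 genes, so the shared shRNA was not taken as a pairing of libraries across all genes.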

Additional observations from a re-analysis of the deposited data

How the results depend on the processing

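Counts are given in the order PCBP1 Day 0, PCBP2 Day 0, PCBP1 Day 2, PCBP2 Day 2 unless a table is named. Called complex LSVs numbered 14, 157 and 76 at a probability of 0.90 (last 3 tables), 10, 2, 61 and 18 at 0.99, 155, 83, 432 and 269 by an expected change of at least 20 points, 399, 247, 1274 and 844 by at least 10 points, 13, 2, 44 and 21 among those still of several kinds, and 0, 0, 1 and 1 with no unannotated junction. Complex LSVs with a called junction share numbered 28 (PCBP1 Day 0) and 4791 (between the days) with 0.1 TPM added, 110, 134 and 32 (PCBP1 Day 0, PCBP1 Day 2, PCBP2 Day 2) with 1 TPM, 12 (PCBP2 Day 2) at a mean TPM of at least 5, 31, 0, 11 and 1 in fits on the 9 libraries of a day, and 26, 130, 48 and 3489 (PCBP1 Day 0, PCBP1 Day 2, PCBP2 Day 2, between the days) with the share offset. With 1 library left out they ran from 15 to 62, 0 to 11, 0 to 162 and 0 to 80. The lowest PCBP1 Day 0 counts were 15, 18 and 24, without PCBP1 knockdown replicates 4 and 1 and control replicate 2; at PCBP2 Day 0 they were 0 without knockdown replicate 1 and 11 without control replicate 3. At PCBP1 Day 2 the count was 162, 0 and 4 without control replicates 1, 2 and 3, and 7 and 4 without knockdown replicates 1 and 4. At PCBP2 Day 2 it was 80, 2 and 3 without control replicates 1, 2 and 3, and 3 and 0 without knockdown replicates 1 and 4. Host genes called numbered 318, 7 and 1016 with DESeq2 (PCBP1 Day 0, PCBP2 Day 0, PCBP2 Day 2), 301 and 19 without a filter on low counts (Day 0) and 858, 582 and 48 in fits of 9 libraries (PCBP1 Day 0, PCBP1 Day 2, PCBP2 Day 2). With 1 library left out they ran from 14 to 103, 1 to 4, 957 to 1671 and 315 to 641; at PCBP1 Day 0 they were 28 and 18 without control replicates 1 and 2 and 14, 68 and 30 without knockdown replicates 1, 3 and 4. At PCBP2 Day 0 they were 1 without control replicates 1 or 2 or knockdown replicates 1 or 3, and at PCBP2 Day 2 315 without knockdown replicate 4. The cause of these moves was not tested. The median effective number in complex LSVs found in all 4 tables was 1.01 in each Day 0 group and 1.06, 1.05 and 1.07 in Day 2 controls, PCBP1 and PCBP2 knockdown; in those with no unannotated junction it was 1.05 and 1.06 (controls of the PCBP1 and PCBP2 tables), 1.06 and 1.06 at Day 0, and 1.03, 1.03, 1.03 and 1.04 at Day 2. Between the days the replicate block (the shared shRNA) gave 7411 complex LSVs with a called share and 8069 host genes, beside 7585 and 8111, and within a day knockdown and control share no shRNA, so no block was possible there. Depth behind the pooled PSI is unknown, which limits every PSI statement.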
